A study of Rattus norvegicus with 10 samples.

Results

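Synaptic vesicle and SNARE genes of the rat hippocampus were followed across 10 libraries, 5 taken after traumatic brain injury (TBI) and 5 after sham surgery. They were chosen by name: gene symbols that begin with Syt, Stx, Vamp, Cplx, Rims, Sv2, Unc13, Doc2 or Syngr, and the symbols Syn1, Syn2, Syn3, Syp, Nsf, Snap23, Snap25, Snap29, Snap47 and Snap91. This gave 80 of the 23824 genes and unnamed loci in the table. The prefixes also take in the synaptotagmin-like proteins (Sytl) and the syntaxin-binding proteins (Stxbp). The rule uses symbols only, but it was written with earlier results of these data known.

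The animals were male Sprague-Dawley rats of 200 to 240 g. TBI rats received a fluid percussion injury, in which a pulse of fluid strikes the exposed dura, and sham rats received surgery without it. The hippocampus was taken 1 week later, after a learning test that both groups performed, and messenger RNA was sequenced after poly-A selection. The labels name no transgene or drug, and do not state whether each library is its own animal. The p-values below cover only how far these libraries vary, which may be partly technical.

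Neurons release transmitter when a vesicle fuses with the presynaptic membrane. A vesicle SNARE protein (a VAMP) zippers together with a syntaxin and a SNAP-25 protein of the plasma membrane, and the ATPase NSF later takes the complex apart. RIM and Munc13 proteins dock and prime the vesicle at the active zone, complexins hold the assembled complex ready, and synaptotagmins trigger fusion when they bind calcium. Synapsins tether the reserve vesicles, and SV2 proteins, synaptophysin and synaptogyrins are carried in the vesicle membrane. In the hippocampus this machinery serves the glutamate synapses of granule and pyramidal cells and the GABA synapses of interneurons.

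The complexins had the sharpest contrast among these genes, and their promoters are shown for that reason. Cplx1 and Cplx2 serve conventional synapses, while Cplx3 and Cplx4 are the complexins of retinal ribbon synapses. Each line gives the RefSeq promoter window in the GRCr8 build, from 250 bases before to 50 bases after the transcription start, on the gene's own strand. Capitals mark matches on either strand to GGGCGG, the GC box bound by Sp1, or to TAATCC, the core recognised by the OTX and CRX factors of photoreceptors and pinealocytes.
Cplx1: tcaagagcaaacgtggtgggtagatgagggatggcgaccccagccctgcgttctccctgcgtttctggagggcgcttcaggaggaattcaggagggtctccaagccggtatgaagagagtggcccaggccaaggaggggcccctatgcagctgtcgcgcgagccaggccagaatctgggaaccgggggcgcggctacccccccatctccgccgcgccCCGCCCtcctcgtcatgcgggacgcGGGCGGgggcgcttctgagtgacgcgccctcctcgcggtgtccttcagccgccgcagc
Cplx2: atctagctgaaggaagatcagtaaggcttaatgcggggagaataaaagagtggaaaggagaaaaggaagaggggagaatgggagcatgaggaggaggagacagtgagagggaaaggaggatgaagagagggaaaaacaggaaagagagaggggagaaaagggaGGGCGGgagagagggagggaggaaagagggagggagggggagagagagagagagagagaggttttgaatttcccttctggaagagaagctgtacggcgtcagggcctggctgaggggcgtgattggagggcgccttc
Cplx3: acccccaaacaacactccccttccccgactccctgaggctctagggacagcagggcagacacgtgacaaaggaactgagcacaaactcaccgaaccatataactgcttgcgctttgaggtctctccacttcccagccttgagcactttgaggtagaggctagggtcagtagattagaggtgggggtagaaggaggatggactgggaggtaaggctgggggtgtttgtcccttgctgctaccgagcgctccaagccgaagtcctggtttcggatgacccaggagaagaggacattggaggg
Cplx4: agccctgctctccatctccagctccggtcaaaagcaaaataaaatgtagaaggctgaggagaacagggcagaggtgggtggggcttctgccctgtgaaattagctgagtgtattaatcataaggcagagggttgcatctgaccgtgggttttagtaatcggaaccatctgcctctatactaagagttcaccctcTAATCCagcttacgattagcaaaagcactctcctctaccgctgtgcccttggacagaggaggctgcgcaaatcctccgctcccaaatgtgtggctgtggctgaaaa

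These windows lie at chr14:1328823-1329122 on the plus strand for Cplx1, and on the minus strand at chr17:10236704-10237003 for Cplx2, chr8:66906151-66906450 for Cplx3 and chr18:61767705-61768004 for Cplx4. Cplx1 holds 2 GC boxes and Cplx2 holds 1. Cplx3 holds neither motif, and Cplx4 holds 1 TAATCC, 56 bases before the start. Of all 33469 promoter windows 33.1% hold GGGCGG and 7.17% hold TAATCC, and of the 61 members with a window 38 hold GGGCGG and 3 hold TAATCC (Cplx4, Rims3 and Unc13c). The motifs do not overlap each other, and a match is a description of the letters only.

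Expression is given as FPKM (fragments per kilobase of transcript, scaled to each library's mapped fragments), which allows levels to be compared between genes. The sum of FPKM over the table was 523239 to 629660 per library, and the read depth is unknown. Hippocampal neuron markers were present: 5 of 6 listed genes were in the table (Zbtb20 was not matched), and all 5 exceeded 1 FPKM in every library. TBI 1 stood apart from the other 9 libraries. It had the lowest summed level of the pan-neuronal markers Rbfox3, Tubb3 and Map2, at 293 FPKM against 463 to 548 in TBI 2 to 5 and 470 to 586 in sham libraries, and of the hippocampal neuron markers, at 695 FPKM against 1025 to 1412 in TBI 2 to 5 and 973 to 1381 in sham libraries. It was also the highest library for all 16 genes of a list of pineal and photoreceptor genes, a list chosen after the complexin values had been seen. Their summed level was 2270 FPKM in TBI 1, 3.20 to 7.58 FPKM in TBI 2 to 5, and 2.96 to 44.6 FPKM in sham libraries, with 44.6 in sham 2. Choroid plexus markers ran from 73.8 to 32513 FPKM in TBI libraries and from 35.0 to 31555 in sham libraries, and matrix and meninges markers from 25.5 to 129 FPKM in TBI libraries and from 21.6 to 149 in sham libraries. Endothelial markers summed to 65.5 to 80.7 FPKM in TBI libraries and 79.7 to 118 in sham libraries, highest in sham 4. Because TBI 1 stood apart, most log2 differences below are also given without it.

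None of the vesicle and SNARE genes differed between TBI and sham hippocampus after adjustment. Of the 80 members, 75 had a mean of at least 0.5 FPKM and entered the limma test on log2(FPKM + 0.5). With Benjamini-Hochberg adjustment over all 16194 genes tested, 0 of 75 members passed 0.05, as did 0% of all genes, and the smallest adjusted p of a member was 0.983. At an unadjusted p under 0.05 there was 1 member, Syt2, which was lower, against a background of 1.51% of genes lower, 1.41% higher and 2.91% in either direction. The TBI and sham ranges overlapped for all 75 tested members, while 0.482% of all genes had groups that did not overlap. For a typical member the 95% interval reached 0.39 log2 units to either side (median over the 75), against 0.32 for all genes. For 65 of the 75 it stayed between -1 and 1.

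The members' means leaned downward after TBI, and that lean was small when TBI 1 was left out. With all libraries the mean log2 value was lower in TBI for 50 of 75 members, where the background was 49.6% of genes, and the median difference was -0.067 for members and 0.0013 for all genes. Without TBI 1, 73 members were tested, 37 were lower and 36 higher, against a background of 46.3% lower, and the median was -0.0003 for members and 0.011 for all genes. At an unadjusted p under 0.05 there was again 1 member, Syt2, against 2.75% of genes. With only libraries 2 to 5 of each group, a choice made after the values were seen, there were 4 of 73 members (Sv2b and Syt6 higher, Syt2 and Sytl1 lower), against 5.30% of genes, and their smallest adjusted p was 0.914. Cplx4 and Sytl4 passed the 0.5 FPKM filter only through TBI 1.

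TBI 1 was the lowest of the 10 libraries for 40 of the 75 members, where 28.6% of all genes had their lowest value there, and the highest for 13, against 22.1% of all genes. The summed FPKM of all 80 members was 4681.9 in TBI 1, or 0.840% of that library's FPKM, against 6464.3 to 7336.2 in TBI 2 to 5 and 6240.6 to 7575.4 in sham libraries, or 1.10% to 1.24%. The median member stood 0.36 below its level over the libraries in TBI 1 on the log2 scale (-0.36, with all genes at -0.021). In tissue RNA, fewer cells of a type and less RNA per cell cannot be told apart. What part the neuronal and pineal transcripts of TBI 1 have in the low members was not tested.

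**Figure D1:**
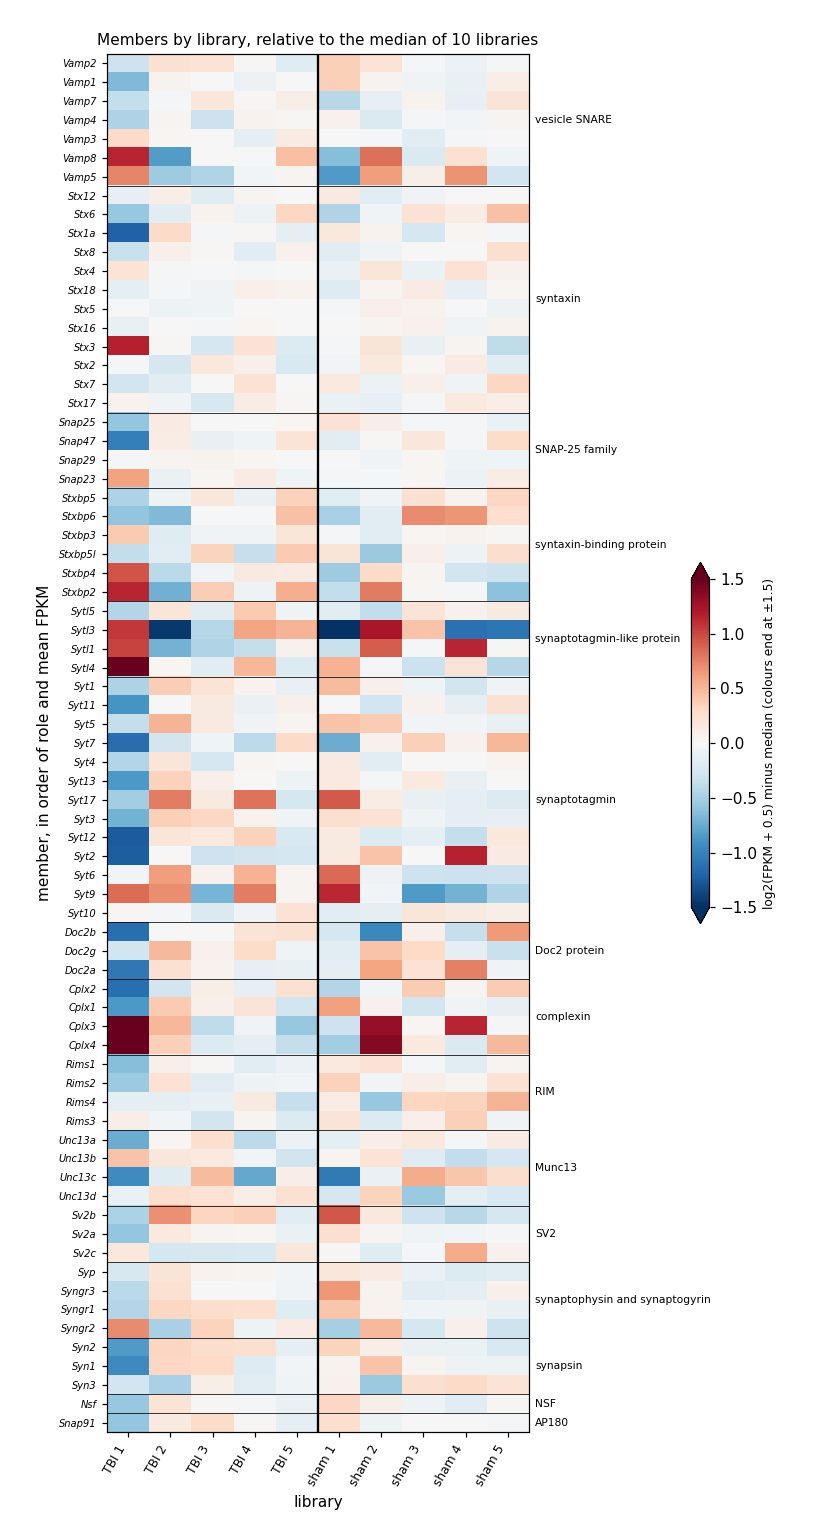
Colour gives the log2(FPKM + 0.5) of 73 tested members minus each member's median over the 10 libraries (colours end at 1.5 either way), with TBI libraries left of the black line, sham libraries right of it, and members in rows by role. TBI 1 is blue in most rows and red in others, among them Cplx3, Cplx4, Stx3, Vamp8, Stxbp2, Sytl1, Sytl3 and Sytl4. No row splits TBI from sham libraries without overlap.

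Levels differed far more between members than between groups. The means of 15 members were at least 100 FPKM, 34 lay between 10 and 100, 24 between 1 and 10, and 7 below 1. The top 5 members, Snap25, Syp, Vamp2, Cplx2 and Syt1, held 49.4% of the summed mean. At the other end, 5 members were not tested: Syt15, Syt8, Stx11, Stx19 and Syngr4, whose values ran from 0.0121 to 0.549 FPKM over all libraries. The means nearest the filter were 0.323 FPKM for Syngr4, outside, and 0.569 for Sytl4, inside.

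Snap25, the neuronal plasma membrane SNARE and the most abundant member, had 843, 1381, 1271, 1256 and 1290 FPKM in TBI libraries 1 to 5, against 1474, 1339, 1235, 1248 and 1177 FPKM in sham libraries 1 to 5. TBI 1 was low and the other 4 TBI libraries lay inside the sham range. The means were 1208 ± 210 FPKM in TBI and 1295 ± 116 FPKM in sham (SD, n = 5 each), a log2 difference of -0.12 (SE 0.16), and 0.0090 without TBI 1. Snap25 made up 95.9% to 97.3% of the summed FPKM of its 4-gene family in every library, TBI 1 included. Of its relatives, Snap47 averaged 26.3 ± 7.46 FPKM in TBI and 30.0 ± 3.71 in sham (log2 difference -0.24, and -0.024 without TBI 1). Snap23, the broadly expressed family member, had 6.78 FPKM in TBI 1 against 3.96 to 4.71 in TBI 2 to 5 and 4.0 to 4.66 in sham libraries, so it was highest in the library where Snap25 was lowest.

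Snap29, a SNARE of intracellular membranes, varied least among the members. It had 11.4, 11.9, 12.0, 11.8 and 11.6 FPKM in TBI libraries and 11.5, 11.1, 11.8, 11.0 and 11.0 FPKM in sham libraries. All 5 TBI libraries lay above the sham mean but inside or just above the sham range. The means were 11.7 ± 0.249 FPKM in TBI and 11.3 ± 0.349 FPKM in sham, a log2 difference of 0.056 (SE 0.061), and 0.066 without TBI 1. The exact two-sided permutation test of this single gene gave p = 0.0476, limma gave an unadjusted p of 0.375, and the adjusted limma p was 0.983.

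Among the syntaxins, Stx1a is a plasma membrane partner of Snap25 in neurons. Stx1a had 21.3, 61.2, 49.2, 50.9 and 45.2 FPKM in TBI libraries, against 55.9, 51.9, 41.7, 51.0 and 49.3 FPKM in sham libraries. Only TBI 1 lay below the sham range and TBI 2 above it. Its log2 difference was -0.21 (SE 0.24), and 0.045 without TBI 1.

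Stx3, the syntaxin of retinal ribbon synapses and of polarized epithelial cells, went the other way in the same library. It had 13.4, 5.75, 4.68, 6.69 and 4.85 FPKM in TBI libraries, against 5.59, 6.57, 5.23, 5.84 and 4.23 FPKM in sham libraries, so TBI 1 alone stood high. The ratio of Stx3 to Stx1a was 0.628 in TBI 1, 0.0939 to 0.131 in TBI 2 to 5 and 0.0859 to 0.126 in sham libraries. The log2 difference of Stx3 was 0.24 (SE 0.25) and -0.0003 without TBI 1. The endosomal and Golgi syntaxins differed in spread. Stx6 had 36.7, 49.0, 56.8, 52.0 and 68.4 FPKM in TBI libraries and 39.9, 53.0, 64.1, 59.3 and 74.4 FPKM in sham libraries, low in both libraries numbered 1. Stx12 averaged 64.2 ± 5.05 FPKM in TBI and 64.9 ± 4.90 FPKM in sham. Stx16 averaged 18.4 ± 0.724 FPKM in TBI and 19.0 ± 0.638 FPKM in sham, and Stx7 4.50 ± 0.682 FPKM in TBI and 4.96 ± 0.615 FPKM in sham. All 13 tested syntaxins had an interval within 1 log2 unit either way. The mean in TBI was lower for 11 and higher for 2, where 49.6% of all genes were lower. Without TBI 1 it was lower for 10 and higher for 3, against 46.3% of genes lower.

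The vesicle SNAREs fell into neuronal and broadly expressed genes. Vamp2, the main neuronal vesicle SNARE, had 432, 629, 618, 546 and 474 FPKM in TBI libraries and 688, 619, 529, 506 and 529 FPKM in sham libraries. Its means were 540 ± 86.8 FPKM in TBI and 574 ± 76.8 FPKM in sham, a log2 difference of -0.095 (SE 0.14), and -0.018 without TBI 1. Vamp1, its close relative, had 68.2 FPKM in TBI 1 against 102 to 112 in TBI 2 to 5 and 99.7 to 138 in sham libraries, with a log2 difference of -0.21 (SE 0.14) and of -0.080 without TBI 1. Vamp3, the broadly expressed SNARE of recycling endosomes, averaged 29.0 ± 3.23 FPKM in TBI and 26.7 ± 1.34 in sham and was highest, at 33.7 FPKM, in TBI 1. Vamp4 and Vamp7, of the Golgi and of late endosomes, differed by -0.10 and 0.068 on the log2 scale, and by -0.016 and 0.15 without TBI 1.

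Some members with a large spread were high in libraries where markers of tissue next to the hippocampus were also high. They were chosen after their values were seen, except Sytl1 and Sytl3. Vamp8, a SNARE of secretory and endosomal membranes outside neurons, had 45.9, 11.3, 20.5, 20.7 and 28.3 FPKM in TBI libraries and 13.0, 36.8, 17.7, 24.3 and 19.6 FPKM in sham libraries. Vamp5 had 7.64 FPKM in TBI 1, 7.10 in sham 2 and 7.35 in sham 4, and 2.22 to 4.73 in the other libraries. The synaptotagmin-like gene Sytl1 was high in the same libraries, with 1.43 FPKM in TBI 1, 1.29 in sham 2 and 1.61 in sham 4, against at most 0.492 FPKM elsewhere. Its log2 difference between groups was -0.43 (SE 0.38). Without TBI 1 it was -0.71 (SE 0.32), with an unadjusted limma p of 0.0528. The matrix and meninges markers summed to 129, 72.9 and 149 FPKM in those libraries and to at most 39.6 FPKM in the others, with Col1a2 at 0 in every library. Vamp8 did not follow these markers throughout. It had 28.3 FPKM in TBI 5, where they summed to 25.5 FPKM, and 24.3 FPKM in sham 4, where they summed to 149 FPKM.

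Sytl3 ranked the libraries in nearly the order of the choroid plexus marker Ttr. It had 2.74, 0.0678, 0.654, 1.83 and 1.71 FPKM in TBI libraries, where Ttr had 32233, 72.7, 9079, 11836 and 17770 FPKM. In sham libraries Sytl3 had 0.0537, 3.11, 1.58, 0.215 and 0.230 FPKM, where Ttr had 34.5, 31400, 9405, 56.2 and 421 FPKM. Both were lowest in sham 1 and highest in TBI 1 and sham 2. The log2 difference of Sytl3 was 0.47 (SE 0.60) with all libraries and 0.21 without TBI 1. Of the other synaptotagmin-like genes, Sytl4 had 2.22 FPKM in TBI 1, 0.245 to 0.71 in TBI 2 to 5 and 0.138 to 0.728 in sham libraries. Sytl5 averaged 3.28 ± 0.843 FPKM in TBI and 3.23 ± 0.577 FPKM in sham. The part of choroid plexus, matrix or meninges RNA in these values was not tested.

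Among the syntaxin-binding proteins, Stxbp5 (tomosyn), which competes for SNARE assembly, averaged 36.0 ± 7.61 FPKM in TBI and 38.3 ± 5.28 FPKM in sham. Stxbp6 (amisyn) was lower in TBI, at 29.4 ± 9.52 against 38.1 ± 13.1 FPKM in sham, a log2 difference of -0.36 (SE 0.27, and -0.25 without TBI 1) within wide and overlapping ranges. Stxbp4 had 6.87 FPKM in TBI 1, 2.38 to 3.70 in TBI 2 to 5 and 2.14 to 4.16 in sham libraries, and Stxbp2, used outside neurons, 3.81 FPKM in TBI 1, 0.684 to 2.34 in TBI 2 to 5 and 0.769 to 2.85 in sham libraries.

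The RIM proteins, which tie vesicles to calcium channels at the active zone, had lower means in TBI for all 4 members, with and without TBI 1. Rims1 had 29.1, 48.2, 46.3, 40.7 and 43.0 FPKM in TBI libraries and 50.7, 53.0, 45.1, 41.0 and 47.0 FPKM in sham libraries. Rims2 had 14.6, 25.0, 19.2, 20.3 and 20.9 FPKM in TBI libraries and 27.5, 20.9, 23.0, 22.1 and 25.1 FPKM in sham libraries. In both genes TBI 1 was lowest, and the range of the other TBI libraries overlapped that of the sham libraries. The log2 differences were -0.21 for Rims1, -0.25 for Rims2, -0.15 for Rims3 and -0.26 for Rims4, with SEs of 0.12 to 0.18. Without TBI 1 they were -0.085, -0.15, -0.19 and -0.25. No RIM passed even an unadjusted p of 0.05 in limma, and the smallest was 0.0832, for Rims2.

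The Munc13 genes prime vesicles for release. Unc13a, the main form in forebrain glutamate neurons, averaged 36.6 ± 9.45 FPKM in TBI and 42.1 ± 3.44 FPKM in sham (log2 difference -0.24, SE 0.16, and -0.10 without TBI 1). Unc13b, a second neuronal form, averaged 9.07 ± 1.73 FPKM in TBI and 7.86 ± 1.37 in sham. Unc13d (Munc13-4), known for granule release from immune cells, had 1.06, 1.49, 1.44, 1.30 and 1.46 FPKM in TBI libraries and 0.910, 1.62, 0.639, 1.02 and 0.933 FPKM in sham libraries. All 5 TBI libraries lay above the sham mean, but sham 2 lay above all of them. The log2 difference was 0.30 (SE 0.17), with an unadjusted limma p of 0.0977, and 0.36 without TBI 1.

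The synaptotagmins are the calcium sensors of release. Syt1, the fast sensor of forebrain synapses, had 260, 463, 411, 371 and 330 FPKM in TBI libraries and 498, 377, 341, 294 and 344 FPKM in sham libraries. Its means, 367 ± 77.6 FPKM in TBI and 371 ± 77.1 FPKM in sham, differed by -0.018 (SE 0.18) on the log2 scale, and by 0.10 without TBI 1. Syt11, which does not bind calcium, averaged 246 ± 59.2 FPKM in TBI and 263 ± 35.2 in sham. Syt7, the slow high-affinity sensor of asynchronous release, averaged 58.6 ± 19.8 FPKM in TBI and 74.9 ± 21.8 FPKM in sham (log2 difference -0.37, SE 0.28), and -0.16 without TBI 1.

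Syt2 had the smallest p of all members. It is the fast calcium sensor of hindbrain synapses and, in the forebrain, of parvalbumin interneurons. It had 1.33, 3.83, 2.97, 3.07 and 3.09 FPKM in TBI libraries, against 4.22, 5.29, 3.78, 9.10 and 4.18 FPKM in sham libraries. All 5 TBI libraries lay below the sham mean, and the groups overlapped only where TBI 2 exceeded sham 3. The means were 2.86 ± 0.921 FPKM in TBI and 5.31 ± 2.19 FPKM in sham. The log2 difference was -0.78 (SE 0.27, 95% interval -1.37 to -0.19), with an unadjusted limma p of 0.0149 and an adjusted p of 0.983. The exact two-sided permutation test of this gene gave p = 0.0159, where the smallest p that 5 against 5 libraries allow is 0.00794. Without TBI 1 the difference was -0.57 (SE 0.22), with an unadjusted limma p of 0.0275 and an adjusted p of 1.000. Without sham 4 it was -0.58, and without sham 2, sham 4 and TBI 1 it was -0.29. The summed level of the endothelial markers was also highest in sham 4, as were Cldn5 and Cdh5 singly. Pecam1 was highest in TBI 1 (10.1 FPKM) and Flt1 in sham 5 (16.0 FPKM). The summed matrix and meninges markers were highest in sham 4 too, at 149 FPKM. The part of either set in the Syt2 values was not tested. The summed level of the GABA neuron markers Gad1, Gad2 and Slc32a1 was 135 to 174 FPKM in TBI libraries and 121 to 212 FPKM in sham libraries, with 155 FPKM in TBI 1 and 126 FPKM in sham 4.

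**Figure D2:**
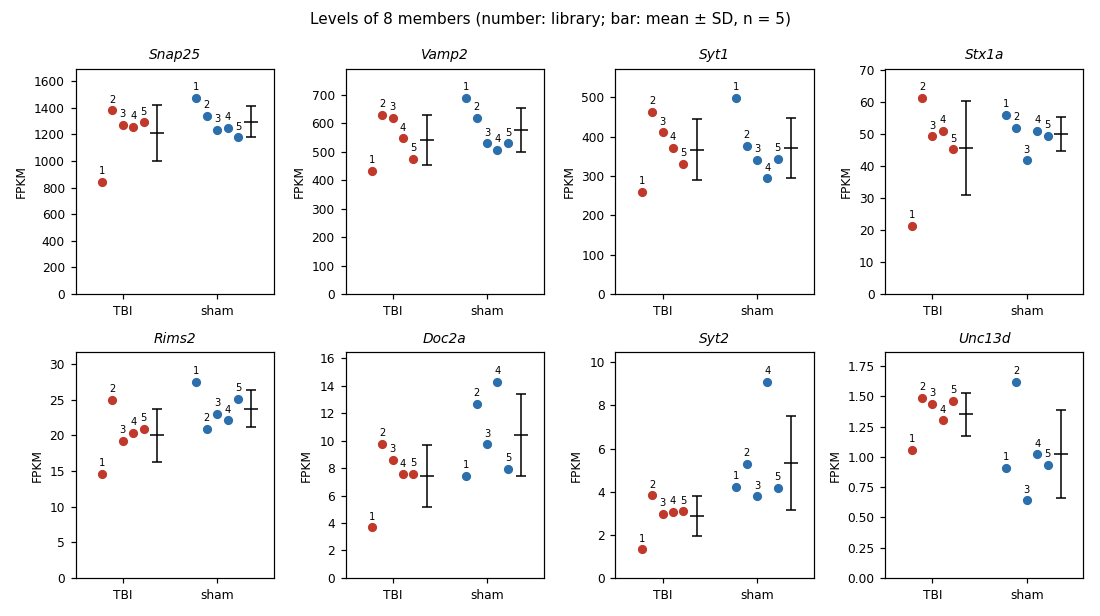
FPKM of 8 members in each library, TBI left and sham right, numbered by library, with the mean and SD of 5 libraries beside each group on axes that start at 0. TBI 1 is the lowest of all 10 libraries in 7 of the 8 panels (Snap25, Vamp2, Syt1, Stx1a, Rims2, Doc2a and Syt2), and the Syt2 groups overlap only through TBI 2 and sham 3.

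A further pattern crossed the groups. Syt17, Syt6, Syt9 and Sv2b were high in sham 1, TBI 2 and TBI 4, a choice of genes made after their values were seen, and Syt9 was high in TBI 1 as well. Syt17 had 19.9, 49.5, 31.6, 50.8 and 23.9 FPKM in TBI libraries and 54.7, 31.2, 26.5, 26.0 and 24.8 FPKM in sham libraries. Sv2b, an SV2 form of glutamate neurons, had 68.7, 155, 120, 123 and 86.1 FPKM in TBI libraries and 183, 107, 77.6, 71.8 and 80.5 FPKM in sham libraries. The GABA neuron markers were also highest in these libraries, at 172 FPKM in TBI 2, 174 in TBI 4 and 212 in sham 1 against 121 to 155 in the others. Prox1, the marker of dentate granule cells, had 10.8, 12.1, 12.9, 13.4 and 18.0 FPKM in TBI libraries and 6.99, 14.4, 22.1, 21.2 and 17.9 FPKM in sham libraries. Wfs1, a marker of CA1 pyramidal cells, had 64.0, 90.1, 129, 80.0 and 161 FPKM in TBI libraries and 70.1, 90.2, 157, 121 and 265 FPKM in sham libraries. Both were low in sham 1. Whether the subregions of the hippocampus were sampled in unequal parts was not tested.

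Ratios within a library also set sham 1 apart. Syt1 over Syt7 was 8.36, 8.09, 6.18, 7.03 and 3.88 in TBI libraries and 12.0, 5.19, 3.82, 4.05 and 3.48 in sham libraries. Sv2b over Sv2a was 1.01 to 1.54 in TBI libraries and 0.815 to 1.69 in sham libraries, with 1.69 in sham 1. The groups overlapped in each ratio.

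**Figure D3:**
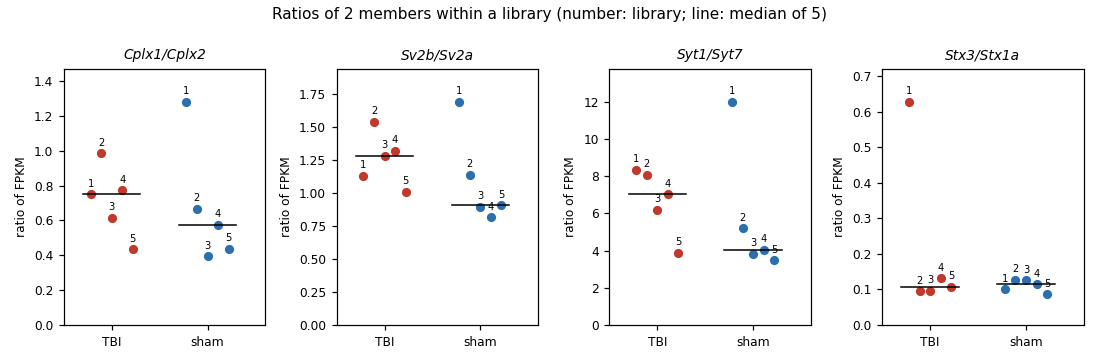
Ratio of the FPKM of a pair of members within each library, TBI left and sham right, numbered by library, with a line at the median of 5. Sham 1 is highest for Cplx1/Cplx2 (1.28), Sv2b/Sv2a (1.69) and Syt1/Syt7 (12.0), and TBI 1 stands alone for Stx3/Stx1a (0.628). Cplx2 is drawn as the sum of its 2 rows, and on the larger row alone TBI 2 is highest for Cplx1/Cplx2 (1.45).

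The Doc2 proteins are calcium sensors related to synaptotagmins, with a part in spontaneous and asynchronous release. Doc2a had 3.68, 9.76, 8.59, 7.56 and 7.60 FPKM in TBI libraries and 7.44, 12.7, 9.73, 14.3 and 7.96 FPKM in sham libraries. Its means, 7.44 ± 2.28 FPKM in TBI and 10.4 ± 3.0 FPKM in sham, differed by -0.48 (SE 0.25) on the log2 scale, with an unadjusted limma p of 0.0862, and by -0.26 without TBI 1. Doc2b had 12.0 FPKM in TBI 1, 26.6 to 31.6 in TBI 2 to 5 and 13.5 to 42.0 in sham libraries. Its log2 difference was 0.030 (SE 0.32), and 0.28 without TBI 1.

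The complexins divided into abundant and rare genes, and TBI 1 broke that division. Cplx3 had 52.0, 1.28, 0.468, 0.715 and 0.349 FPKM in TBI libraries and 0.516, 2.61, 0.784, 2.28 and 0.734 FPKM in sham libraries. Cplx4 had 47.0, 0.416, 0.121, 0.145 and 0.0603 FPKM in TBI libraries and 0, 1.36, 0.296, 0.119 and 0.505 FPKM in sham libraries. Both stood far above every other library in TBI 1, where they made up 12.9% and 11.6% of the summed complexin FPKM. Elsewhere Cplx3 was at most 0.418% and Cplx4 at most 0.218%, both in sham 2. The difference between groups changed sign for Cplx3, at 0.55 (SE 1.01) with all libraries and -0.55 (SE 0.38) without TBI 1. For Cplx4 it was 0.88 (SE 1.11), and without TBI 1 the gene fell under the filter.

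Genes of the pineal gland and of photoreceptors shared this pattern. Tph1, which makes serotonin in the pineal gland, had 1030 FPKM in TBI 1, at most 1.31 in TBI 2 to 5 and at most 18.0 in sham libraries, the last in sham 2. Asmt, the final enzyme of melatonin synthesis, had 105 FPKM in TBI 1 and at most 2.30 FPKM elsewhere. Crx, the transcription factor of photoreceptors and pinealocytes, had 64.8 FPKM in TBI 1 and at most 0.990 FPKM elsewhere, and was at 0 in sham 1, 3, 4 and 5. Sham 2, the second highest library for Cplx3 and Cplx4, was also second highest for Tph1, Asmt and Crx. It was not for Grk1 of the same list, at 0.910 FPKM in sham 2 and 1.26 FPKM in TBI 3. Sham 4 came close to sham 2 for Cplx3, at 2.28 against 2.61 FPKM. It had only 0.0538 FPKM of Tph1 and 0.658 FPKM of Asmt. The part of pineal RNA in the complexin values was not tested.

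**Figure D4:**
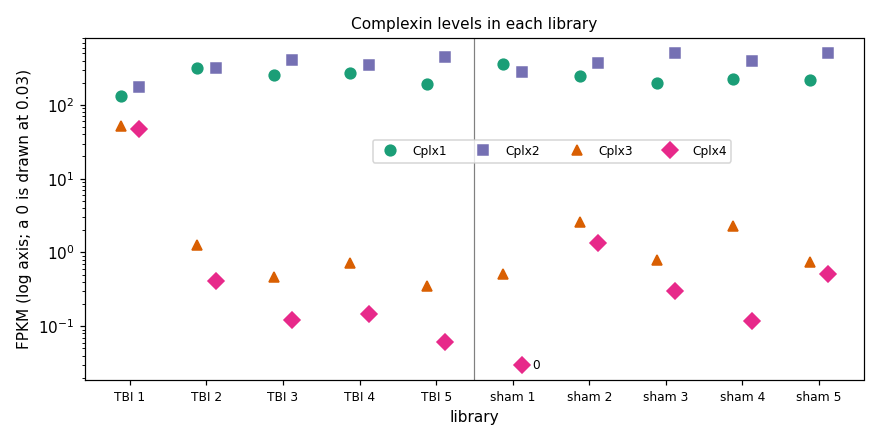
FPKM of the 4 complexins in each library on a log axis, TBI left of the line and sham right of it, with a 0 drawn at 0.03. Cplx3 and Cplx4 reach 52.0 and 47.0 FPKM in TBI 1, below the 131 and 175 FPKM of Cplx1 and Cplx2 there. They do not exceed 2.61 FPKM in any other library.

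The abundant complexins overlapped between groups. Cplx1 had 131, 314, 251, 272 and 195 FPKM in TBI libraries and 364, 249, 196, 228 and 218 FPKM in sham libraries, a log2 difference of -0.14 (SE 0.24), and 0.052 without TBI 1. Cplx2 had 175, 318, 409, 352 and 450 FPKM in TBI libraries and 284, 372, 499, 397 and 501 FPKM in sham libraries, a log2 difference of -0.31 (SE 0.25), and -0.085 without TBI 1. Cplx2 is a sum of 2 rows of the table. The larger, XLOC_010173, ran from 171 to 393 FPKM. The smaller, XLOC_009883, was at 3.94 FPKM in TBI 1 and 6.73 FPKM in sham 1, against 91.3 to 142 FPKM in the other 8 libraries. Such a gap in both libraries numbered 1, with each more than 5-fold below the lowest of the others, occurred in 29 of 16889 rows tested, and in 1 of 78 rows of members. Taken alone, the larger row differed by -0.32 (SE 0.21), with an unadjusted limma p of 0.153. Leaving out TBI 1 keeps the gap in sham 1, so the -0.085 of the summed rows is touched by it. In libraries 2 to 5 of each group the summed rows of Cplx2 differed by -0.21. The ratio of Cplx1 to Cplx2 is touched by this gap: it was 0.749 in TBI 1 and 1.28 in sham 1 on summed rows, and 0.766 and 1.32 on the larger row. In TBI 2, where the smaller row was not low, the ratio was 0.986 on summed rows and 1.45 on the larger row. Sham 1 was thus highest only on summed rows, and TBI 2 was highest on the larger row. The cause of the gap was not tested.

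The vesicle membrane proteins overlapped between groups. Syp (synaptophysin), the second most abundant member, had 595, 805, 733, 723 and 686 FPKM in TBI libraries and 795, 765, 657, 610 and 630 FPKM in sham libraries. Its means were 708 ± 76.7 FPKM in TBI and 691 ± 83.6 FPKM in sham, and the log2 difference was 0.036 (SE 0.12, 95% interval -0.23 to 0.31), and 0.10 without TBI 1. Syngr3, a neuronal synaptogyrin, averaged 109 ± 16.6 FPKM in TBI and 121 ± 30.3 FPKM in sham. Syngr2, the synaptogyrin of cells outside the nervous system, had 28.4 FPKM in TBI 1, 12.1 to 21.7 in TBI 2 to 5 and 12.0 to 24.3 in sham libraries. Sv2a averaged 86.6 ± 15.5 FPKM in TBI and 93.1 ± 8.86 FPKM in sham. Sv2c, the rarest SV2 form here, averaged 2.82 ± 0.525 FPKM in TBI and 3.25 ± 0.799 FPKM in sham.

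The synapsin groups overlapped as well. Syn1 had 113, 271, 269, 191 and 213 FPKM in TBI libraries and 228, 294, 225, 208 and 208 FPKM in sham libraries, a log2 difference of -0.19 (SE 0.22) and of 0.017 without TBI 1. Syn2 had 131, 296, 284, 280 and 216 FPKM in TBI libraries and 298, 253, 221, 221 and 202 FPKM in sham libraries, a difference of -0.030 (SE 0.22) and of 0.17 without TBI 1. Syn3 averaged 2.46 ± 0.441 FPKM in TBI and 3.02 ± 0.740 FPKM in sham. A further row names Fbxo7 and Syn3 together and lay outside the naming rule, so the level of Syn3 may be incomplete. Nsf, the ATPase that recycles SNAREs, averaged 258 ± 47.9 FPKM in TBI and 279 ± 37.0 FPKM in sham, with a log2 difference of -0.12 (SE 0.15) and of -0.0047 without TBI 1. Snap91 (AP180), a clathrin adaptor of vesicle retrieval despite its symbol, averaged 81.6 ± 17.5 FPKM in TBI and 85.1 ± 7.74 FPKM in sham.

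**Figure D5:**
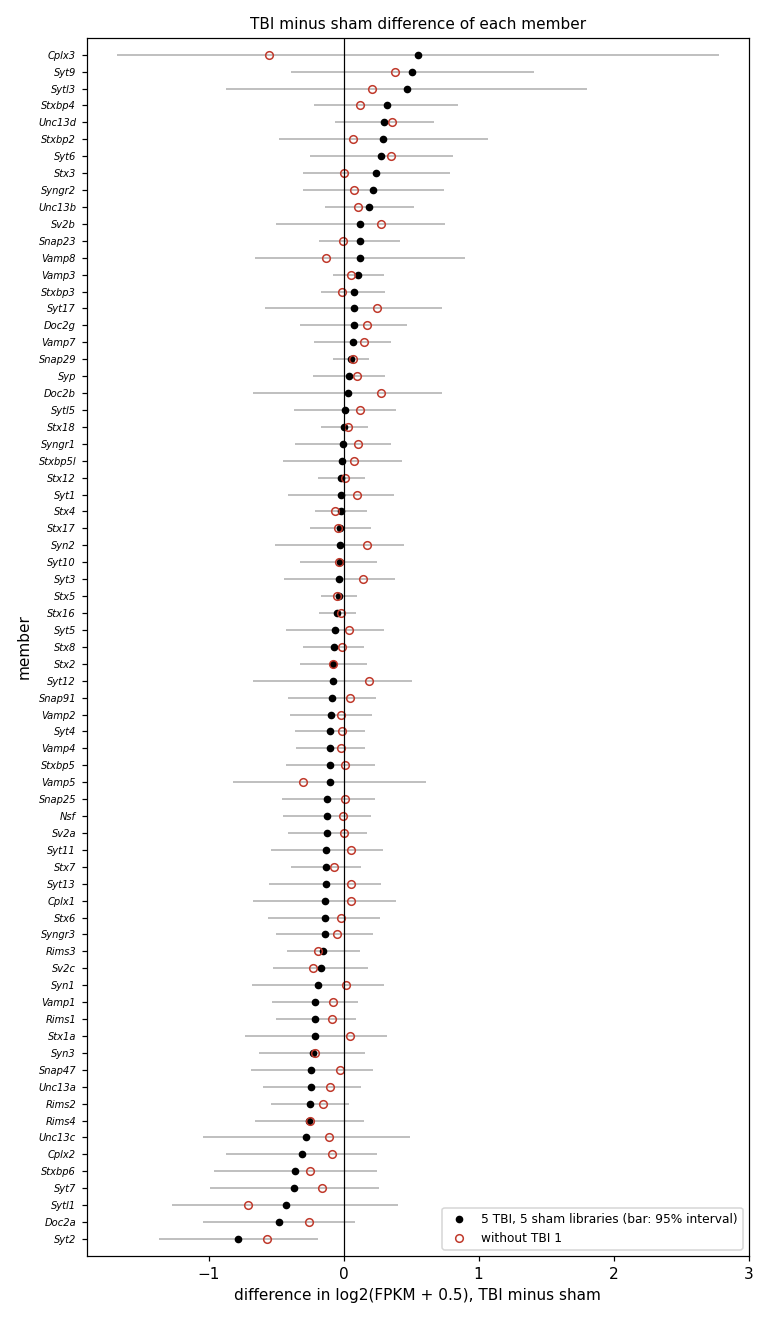
Difference in log2(FPKM + 0.5), TBI minus sham, for 71 members tested both with and without TBI 1 (Cplx4 and Sytl4 are left out), with filled points and 95% intervals for all libraries and open circles without TBI 1. Only the interval of Syt2 stays clear of 0, at -1.37 to -0.19, and most open circles lie closer to 0 than the filled points.

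Other genes of release and recycling, listed from textbook knowledge, had no member past an adjusted p of 0.05 in limma. Of the active zone scaffold and Rab3 genes 19 were tested, 14 with a lower and 5 with a higher mean in TBI, with a median log2 difference of -0.14 and, without TBI 1, of 0.023. The gene with the smallest p was Lin7a, a scaffold partner of CASK, at 1.46 ± 0.653 FPKM in TBI and 2.27 ± 0.393 FPKM in sham (log2 difference -0.56). Its unadjusted limma p was 0.0309 and its adjusted p 0.983, and without TBI 1 its difference was -0.57. It was the only gene of these 6 lists under an unadjusted 0.05, where 2.91% of all genes were. Without TBI 1 there were 3 such genes, Lin7a, Erc2 (0.21) and Amph (0.31), named after their values were seen, against 2.75% of all genes. Of the NSF adaptors and release cofactors 8 of 10 were lower, with a median of -0.077 and, without TBI 1, of 0.023. Their smallest p belonged to Sncb, beta-synuclein, at 306 ± 77.6 FPKM in TBI and 370 ± 36.8 FPKM in sham.

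The later steps of the vesicle cycle had medians near 0 with all libraries and above 0 without TBI 1. Of 24 endocytosis genes 16 were lower, with a median of -0.016 and, without TBI 1, of 0.053. Dnm2, the broadly expressed dynamin that cuts vesicles from the membrane, averaged 24.1 ± 2.97 FPKM in TBI and 20.9 ± 1.42 FPKM in sham (log2 difference 0.20, and 0.18 without TBI 1). Its unadjusted limma p was 0.0576. Of 15 genes of the proton pump that acidifies vesicles 7 were lower, with a median of 0.0014 and, without TBI 1, of 0.051. Atp6v0d1, a subunit of its membrane part, averaged 268 ± 26.0 FPKM in TBI and 242 ± 25.2 FPKM in sham. Of 12 other vesicle membrane genes 7 were lower, with a median of -0.019 and, without TBI 1, of 0.0027, and Sypl2 averaged 0.503 ± 0.0829 FPKM in TBI and 0.699 ± 0.108 FPKM in sham. Of 7 transmitter transporters 3 were lower, with a median of 0.0063 and, without TBI 1, of 0.093 over the 6 then tested. Slc17a7, which loads glutamate into vesicles, had 555 FPKM in TBI 1, 793 to 1082 in TBI 2 to 5 and 697 to 973 in sham libraries. Slc18a2, the monoamine transporter, had 2.22 and 1.85 FPKM in TBI 1 and TBI 5 and at most 0.424 FPKM in the other libraries. It passed the filter on mean FPKM only through TBI 1.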

How the data were processed

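Poly-A RNA of rat hippocampus was sequenced in 5 TBI and 5 sham libraries with an Illumina instrument, per the labels' protocols. Values are FPKM for 25269 rows, as deposited by the authors. The submitters' processing notes name Cufflinks, Cuffdiff, TopHat, Bowtie, TopHat2 and Bowtie2 and the rn5 build, with no roles or versions. The annotation is not given in the sources used here. FPKM carries no read counts, so depth is unknown, no count test was run and precision comes from the spread between libraries. Strand is not recorded in the values, so overlapping genes cannot be told apart. In 81 rows, none of them a member's, the deposited status was not OK.

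Groups and the library numbers 1 to 5 were taken from the labels. Rows sharing a symbol were summed per library, which gave 3 members a sum of 2 rows. Groups were compared with limma 3.58.1 (R 4.3.3; lmFit, and eBayes with trend) by a two-sided test of log2(FPKM + 0.5), for genes with a mean of at least 0.5 FPKM, with Benjamini-Hochberg adjustment over all 16194. Differences on this scale understate the change of low genes. For single genes an exact permutation test, two-sided, used all 252 assignments. The fit was tested on simulated data. Spearman correlations between libraries ran from 0.943 to 0.986.

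Members and lists were chosen with earlier results of these data known. Within each role, the naming rule took the members with the highest mean and the smallest p, and overall the 3 with the largest spread. Others, and the pineal and photoreceptor list, were chosen after values were seen. Promoter sequences are from RefSeq (GRCr8, not the build of the FPKM values), and 61 of 80 members matched one. Alternatives covered the pseudocount, filter, scaling, trend, array weights, a replicate block, a matrix and meninges covariate, unsummed rows and libraries left out. Libraries 2 to 5 of each group alone were added after seeing the data. Of the tested members, 2 are not reported here by name or in the figures, but stay in the counts and sums over all members.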

Additional observations from a re-analysis of the deposited data

Results flagged for a closer look

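In groups of 5 libraries, 11 of 78 sets of values held a library far from the other 4, and 6 of the 11 lay in TBI 1. Chance alone marks about 1 in 20 sets of unselected genes, but these 39 members were named partly for a large spread or a small p, and Cplx4 and Sytl4 were tested only through TBI 1, so the share cannot be read against it. In TBI libraries, the library standing apart was TBI 1 each time. Its level was low for Snap25, at 843 FPKM with the others at 1256 to 1381, for Vamp1, at 68.2 FPKM with the others at 102 to 112, and for Doc2b, at 12.0 FPKM with the others at 26.6 to 31.6. Its level was high for Cplx3, at 52.0 FPKM with the others at 0.349 to 1.28, for Cplx4, at 47.0 FPKM with the others at 0.0603 to 0.416, and for Sytl4, at 2.22 FPKM with the others at 0.245 to 0.71.

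In sham libraries, sham 4 stood high for Syt2, at 9.10 FPKM with the others at 3.78 to 5.29, and for Sv2c, at 4.63 FPKM with the others at 2.56 to 3.13. Sham 1 stood high for Syngr3, at 174 FPKM with the others at 99.5 to 117, and for Snap91, at 98.6 FPKM with the others at 78.9 to 83.8. Sham 3 stood low for Vamp3, at 24.4 FPKM with the others at 27.0 to 27.7.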

How the results depend on the processing

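With every alternative tried, 0 members passed an adjusted p of 0.05, and the smallest adjusted limma p of a named member was 0.592. Over all genes, 0 passed except 2 without sham 2, sham 4 and TBI 1, and 0 to 2 when 1 library was left out. The members' median log2 difference ran from -0.10 to 0.0089. The count of members under an unadjusted 0.05 was 1 in the fit reported, where 2.91% of all genes were. It was 4 with array weights (8.14% of genes), 5 with the replicate block (4.15%), 2 with the matrix and meninges covariate (4.61%), 3 without sham 2, sham 4 and TBI 1 (3.61%), 4 in libraries 2 to 5 of each group (5.30%), and 1 to 4 when 1 library was left out (2.09% to 4.78%). Syt2 was among them each time. Deviations from the group means in same-numbered TBI and sham libraries correlated from -0.379 to 0.306. Of the TBI libraries, 0 of 5 correlated best with the sham library of its own number. A correlation over all genes cannot decide whether same-numbered libraries were paired or handled together, since that may touch few genes. The gap in both libraries numbered 1 occurred in 29 of 16889 rows.

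Of 39 named members, 19 kept their direction under the alternatives run for them (23, but 21 for Sytl1 and 19 for Sytl4), Syt2, Rims1 and Rims2 among them, and 20 reversed at least once, 66 values in all. Causes were not tested. Log2 differences that reversed were as follows. With quantile normalization they were 0.032 for Stx12, -0.048 for Sytl5, 0.070 for Syt1 and 0.022 for Syn2. Median-ratio scaling gave -0.0009 for Sytl5. With array weights they were 0.026 for Vamp2, 0.027 for Stx12, 0.023 for Snap25, 0.14 for Syt1, 0.19 for Cplx1, -0.093 for Cplx4, 0.050 for Syngr3, 0.22 for Syn2, 0.029 for Nsf, 0.026 for Snap91 and -0.19 for Cplx3. The matrix and meninges covariate gave -0.0080 for Sytl5 and -0.024 for Doc2b. Without sham 2, sham 4 and TBI 1 they were 0.011 for Snap25, 0.011 for Syt1, -0.044 for Doc2b, 0.0017 for Doc2a, 0.024 for Cplx1, 0.17 for Syn2 and -0.021 for Cplx3. In libraries 2 to 5 they were 0.049 for Vamp2, 0.044 for Stx12, 0.057 for Snap25, -0.055 for Sytl3, 0.21 for Syt1, 0.058 for Syt11, 0.19 for Cplx1, 0.087 for Syngr3, -0.023 for Syngr2, 0.26 for Syn2, 0.066 for Nsf, 0.10 for Snap91 and -0.74 for Cplx3.

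With 1 library left out at a time, the differences ran from -0.053 to 0.022 for Stx12, -0.17 to 0.0090 for Snap25, -0.20 to 0.0081 for Stxbp5, -0.10 to 0.12 for Sytl5, -0.11 to 0.10 for Syt1, -0.20 to 0.052 for Syt11, -0.17 to 0.28 for Doc2b, -0.26 to 0.052 for Cplx1, -0.014 to 0.35 for Sv2b, -0.012 to 0.10 for Syp, -0.12 to 0.17 for Syn2, -0.17 to 0.045 for Snap91 and -0.55 to 0.94 for Cplx3. Depth is unknown, so the limit on members below 1 FPKM cannot be stated from counts.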
